A study of Rattus norvegicus with 24 samples.

Results

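The genes described here encode the receptors for serotonin, noradrenaline and adrenaline, dopamine, histamine, acetylcholine, opioid peptides, tachykinins, somatostatin, galanin and cannabinoids. A gene was counted as a member when a probe set of the rat 230A array carried 1 gene symbol and that symbol was a receptor subtype of one of these families. The rule found 69 genes among 10411 genes with a single symbol, measured by 92 probe sets. It left out 5 symbols that only look alike, namely Htra1, Htra2 and Htra3 (proteases), Oprpn and Cnrip1 (a protein that binds a cannabinoid receptor). All 69 genes matched an entry of the same symbol in the RefSeq gene table.

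The study measured RNA of the ipsilateral dorsal horn of Sprague-Dawley rats on 24 arrays, 6 in each of 4 groups. Adult rats were 8 to 12 weeks old and the young rats were at postnatal day 10, and the labels do not say whether that day is the day of surgery or of collection. In spared nerve injury (SNI) 2 of the sciatic nerve's branches, the common peroneal and the tibial, were ligated and severed and the sural branch was spared, and tissue was taken 7 days later. Sham rats of each age had the nerve exposed only. All rats were operated under isoflurane, and pups were kept with their mothers. The design text describes the arrays as biologically independent but does not say whether tissue of several rats was pooled, so a p-value here measures the spread between arrays.

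Nerve fibres that descend from the brainstem release serotonin and noradrenaline in the dorsal horn, and local neurons and primary afferents release opioid peptides, somatostatin and substance P. Most of the receptors are G-protein-coupled. Those coupled to inhibitory G proteins, such as the opioid, somatostatin, cannabinoid and alpha-2 adrenergic receptors, reduce transmitter release or neuronal firing, while the NK1 receptor for substance P and the alpha-1 adrenergic receptors couple to Gq and excite neurons. The nicotinic receptors and the serotonin receptor of the third family are ion channels.

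Signals were log2 values normalised by GCRMA, and a gene was tested when its probe set exceeded 3.84 on at least 6 arrays (the 40th percentile over non-control probe sets). Of the 69 receptor genes 16 (23.2%) met this, against 67.3% of all genes. Of those 16 receptors, 13 lay above the level on all 24 arrays. The 16 were Adra1b, Adra1d and Adra2a (adrenergic, of 8 measured), Htr2c and Htr7 (serotonin, of 14), Sstr1 and Sstr2 (somatostatin, of 5), Tacr1 and Tacr3 (tachykinin, of 3), Oprk1 and Oprl1 (opioid, of 4), Cnr1 (cannabinoid, of 2), Drd2 (dopamine, of 5), Hrh3 (histamine, of 4), Chrm3 (muscarinic, of 5) and Chrna4 (nicotinic, of 16). None of the 3 galanin receptors was among them. Galr1 had a mean of 2.24 over the 24 arrays, with a highest array of 3.28.

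The other 53 receptor genes lay above the level on no array. Of these, 33 varied by less than 0.1 log2 over all 24 arrays, which leaves nothing to compare. They included Oprm1 and Oprd1, the mu and delta opioid receptors, whose probe sets stood at 2.09 on all 24 arrays. Cnr2, the cannabinoid receptor known from immune cells, also stood at 2.09 on all 24 arrays. At this value a probe set gives no measurable level, which does not show that the transcript was missing from the tissue. Levels of different probe sets are not comparable with each other, so no order among receptors is given.

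The receptors nearest the level on the inner side were Adra1d, above it on 6 arrays with a mean of 3.69, and Chrm3 and Oprk1, above it on 20 arrays each. Nearest on the outer side were Chrnb2, a nicotinic subunit with a mean of 3.47 and a highest array of 3.81, Sstr3 with a highest array of 3.61 and Adra2c with a highest array of 3.67.

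**Figure D1:**
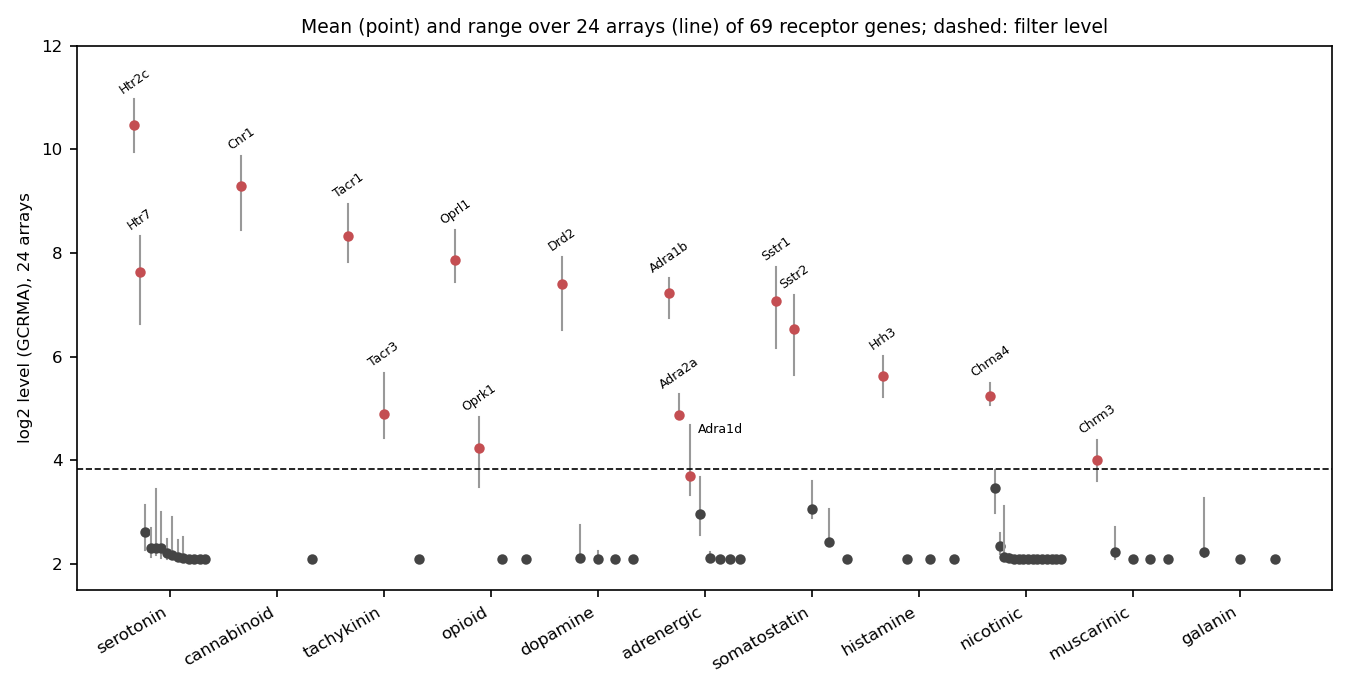
Mean log2 signal over all 24 arrays of each of the 69 receptor genes, by receptor class on the horizontal axis, with bars from the lowest to the highest array and a line at the filter level of 3.84. Most genes lie near the bottom of the scale with bars too short to see, and the 16 tested genes are in red with their symbols.

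For several receptors many arrays had 1 common value in the GCRMA data, which limits what a comparison can show. In 6 of the 16 tested receptors (37.5%), 6 or more arrays shared a single value to within 0.005 log2, against 15.9% of all genes tested. Adra2a, the alpha-2A receptor through which noradrenaline and clonidine act in the cord, stood at 4.84 on 19 of 24 arrays. Hrh3, an inhibitory histamine receptor, stood at 5.61 on 15 arrays. Chrna4 stood at 5.22 on 14, Chrm3 at 4.02 on 11, Tacr3 at 4.82 on 6 and Adra1d at 3.56 on 6. For Adra2a and Hrh3 a difference between groups rests on the 5 and 9 arrays that left the shared value. The shared value was not the lowest level, since from 2 arrays (Adra2a) to 10 arrays (Adra1d) lay below it. Why arrays share a value was not tested. The remaining 10 were Adra1b, Cnr1, Drd2, Htr2c, Htr7, Oprk1, Oprl1, Sstr1, Sstr2 and Tacr1.

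The arrays resembled each other closely, with medians from 5.57 to 5.67 and no correlation between arrays below 0.984. All 9 pan-neuronal markers and all 7 dorsal horn neuron markers were tested, and their list means spanned 11.59 to 12.07 and 9.46 to 10.17. Of 9 measured markers of primary sensory neurons, Isl1, P2rx3, Scn10a, Scn11a and Trpv1 lay above 3.84 on no array and 4, Prph, Calca, Calcb and Ret, were tested. Calca, a peptide precursor also known from motor neurons, had means of 4.99 in adult sham, 7.08 in adult SNI, 3.09 in neonatal sham and 4.68 in neonatal SNI. None of the 4 was called in any injury comparison or in either age comparison. The motor neuron list varied most, with list means from 4.06 to 7.55 over single arrays. Since tissue was measured in bulk, fewer cells of a type and less RNA per cell cannot be told apart in any comparison.

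The first question the design allows is whether receptor transcripts differed between adult and neonatal dorsal horn. Of the 5 somatostatin receptors measured, 3 gave no level above the filter. Sstr1 was lower in adults than in neonates in both surgery groups, and Sstr2, Adra1b and Oprk1 were lower in adults among SNI arrays. No receptor was called higher in adults. Over all genes tested 16.5% were called in sham (7.86% higher in adults) and 21.6% in SNI (9.66% higher). Values below are adult minus neonate on the log2 scale, and a gene was called when limma's Benjamini-Hochberg adjusted p over all 9638 probe sets tested was under 0.05.

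Sstr1 encodes an inhibitory somatostatin receptor. In adult sham dorsal horn its level was 6.48 at the lowest, 6.61 at the median and 7.58 at the highest of 6 arrays, and in neonatal sham it was 7.23, 7.50 and 7.70. After SNI it was 6.16, 6.67 and 7.14 in adults and 7.02, 7.31 and 7.73 in neonates. Of 12 adult arrays, 9 lay below the lowest of the 12 neonatal arrays and 11 lay below the neonatal median, so the groups overlapped through a few high adult arrays. The difference was -0.70 in sham (SE 0.177, 95% interval -1.06 to -0.33, limma adjusted p 0.00781) and -0.72 in SNI (SE 0.177, -1.09 to -0.36, adjusted p 0.00474). This made neonatal Sstr1 1.62-fold higher in sham and 1.65-fold higher in SNI. The other Sstr1 probe sets, with means of 2.11 and 2.09 over all arrays, lay above the filter level on no array. The age comparisons in sham and in SNI share no arrays, but they share the limma estimate of the spread. Deviations of same-numbered sham and SNI arrays were also correlated within each age, so these results are not independent.

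Sstr2 encodes the somatostatin receptor best known in the superficial dorsal horn, where somatostatin inhibits the neurons that carry it. The 250 bases of GRCr8 that precede its annotated start (chr10:99163103-99163352, plus strand, from RefSeq) are shown because it is among the receptors called with age and its window lies outside any other transcript of the gene. Capitals mark a full cyclic AMP response element and a GC box, read on either strand.

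Sstr2: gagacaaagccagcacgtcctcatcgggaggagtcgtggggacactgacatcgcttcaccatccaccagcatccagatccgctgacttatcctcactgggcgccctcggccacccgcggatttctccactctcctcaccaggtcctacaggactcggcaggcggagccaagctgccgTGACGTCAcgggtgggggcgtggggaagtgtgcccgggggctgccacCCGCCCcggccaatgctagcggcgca

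The window was 66.4% G and C and held 20 CpG dinucleotides. It held 1 match to the cyclic AMP response element TGACGTCA, which also counts as 2 matches of its core TGACG, and 1 match to the GC box GGGCGG. It held no E-box CANNTG and no TATAAA. Full cyclic AMP response elements occurred in 1.59% of all 33469 promoter windows of this length and GC boxes in 30.5%. Of the 13 tested receptors with a window 1 held the full element (7.69%), namely Sstr2 itself. Of the 42 receptors not above the level 0% did. The core TGACG occurred in 6 (46.2%) and 5 (11.9%) of these windows, against 18.2% of all windows. These sets also differed in composition, with a median G and C content of 66% and 60%, against 51.2% for all windows. Median CpG counts were 18 and 10, against 5. Whether motif shares differ beyond composition was not tested. A match describes letters only and is no evidence that a factor binds.

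Sstr2 stood at 5.84, 6.50 and 6.52 (lowest, median, highest) in adult sham and at 6.57, 6.86 and 7.19 in neonatal sham. After SNI it stood at 5.64, 6.22 and 6.44 in adults and at 6.24, 6.75 and 7.07 in neonates. All 12 adult arrays lay below the neonatal median, and in sham the groups did not overlap. The difference was -0.58 in SNI (SE 0.161, -0.91 to -0.24, limma adjusted p 0.0122), a 1.49-fold higher neonatal level. In sham it was -0.46 (SE 0.161, -0.79 to -0.13) and missed the threshold with an adjusted p of 0.0531. Without neonatal sham array 3 or array 4 this p was 0.0396 or 0.0428. The second Sstr2 probe set, with a mean of 2.31 over all arrays, lay above the filter level on no array.

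Adra1b encodes the alpha-1B adrenergic receptor. Its levels were 7.07, 7.14 and 7.20 in adult sham and 7.20, 7.26 and 7.47 in neonatal sham, and after SNI 6.75, 7.15 and 7.22 in adults and 7.20, 7.48 and 7.51 in neonates. The spread within groups was small, and 10 of 12 adult arrays lay below every neonatal array. The difference was -0.32 in SNI (SE 0.0826, limma adjusted p 0.00724), or 1.25-fold. In sham it was -0.18 (SE 0.0826, adjusted p 0.157), and the sham groups met at 7.20.

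Oprk1 encodes the kappa opioid receptor, the target of dynorphin. It stood at 3.76, 4.26 and 4.55 in adult sham, 3.48, 3.82 and 4.34 in adult SNI, 4.03, 4.38 and 4.83 in neonatal sham and 4.22, 4.37 and 4.58 in neonatal SNI. It lay above the filter level on 5 and 3 of the 6 adult arrays and on all 12 neonatal arrays. The difference was -0.54 in SNI (SE 0.164, limma adjusted p 0.0198), or 1.46-fold, and -0.23 in sham (SE 0.164, adjusted p 0.372). Without adult SNI array 2 the SNI difference was -0.47 with an adjusted p of 0.0544, and without array 4 it was -0.46 with an adjusted p of 0.0563. Its levels were close to the filter level, and the call was lost without either array. The other Oprk1 probe sets, with means of 2.58 and 2.09 over all arrays, lay above that level on no array.

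Cnr1, the CB1 cannabinoid receptor of presynaptic terminals, had a difference of similar size that missed the threshold in each surgery group. It stood at 8.49, 9.03 and 9.65 in adult sham and 9.11, 9.70 and 9.87 in neonatal sham, and at 8.45, 9.08 and 9.44 in adult SNI and 9.08, 9.60 and 9.85 in neonatal SNI. The differences were -0.52 (SE 0.192, limma adjusted p 0.0639) and -0.50 (SE 0.192, adjusted p 0.0673). Without adult sham array 3 or neonatal sham array 4 the sham difference passed, with adjusted p of 0.0225 and 0.029. Without adult SNI array 3 or neonatal SNI array 1 the SNI difference passed, with adjusted p of 0.0377 and 0.0411. A dimmer second Cnr1 probe set gave -0.45 in sham and -0.72 in SNI, neither called.

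**Figure D2:**
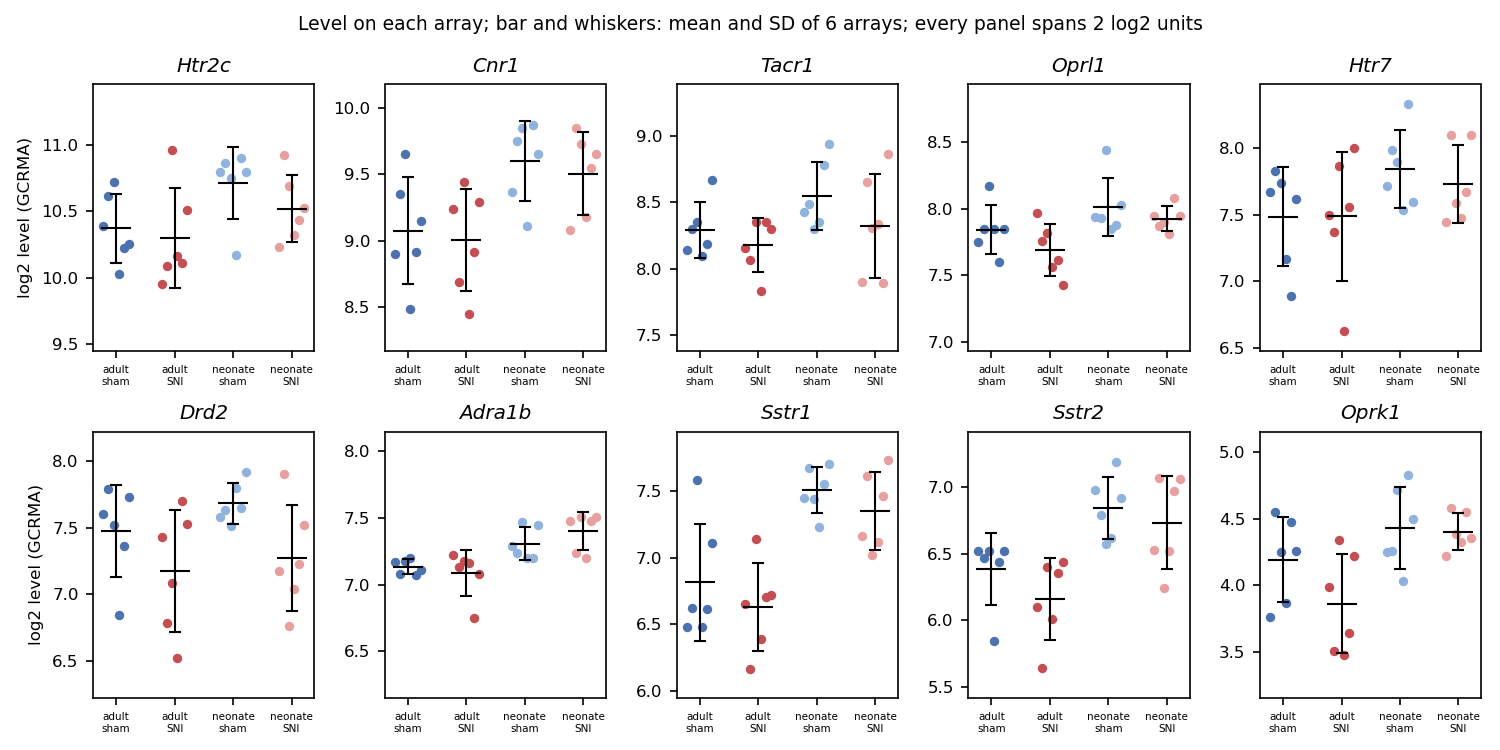
Log2 signal of single arrays for selected receptors, with groups on the horizontal axis and the group mean as a line. Each panel spans 2 log2 units, and the Sstr1 panel shows 9 of 12 adult arrays below every neonatal array.

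The other tested receptors gave smaller or more variable age differences. Htr2c, a Gq-coupled serotonin receptor, gave -0.34 in sham and -0.22 in SNI (limma adjusted p 0.167 and 0.368), and its second probe set -0.64 and -0.50. Htr7, a Gs-coupled serotonin receptor, gave -0.36 and -0.24 (adjusted p 0.24 and 0.436). Oprl1, the nociceptin receptor, gave -0.17 and -0.23 (adjusted p 0.312 and 0.122), and its other probe sets had the same sign. Tacr1, the NK1 receptor for substance P, gave -0.26 and -0.15 (adjusted p 0.272 and 0.544), and Tacr3 gave -0.30 and -0.18. Drd2, an inhibitory dopamine receptor, gave -0.21 and -0.10.

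Of the 16 receptors, 1 was called in sham, where 16.5% of all genes tested were called, and 4 in SNI, where 21.6% were. Over all genes 8.59% were called lower and 7.86% higher in adult sham, and 11.9% lower and 9.66% higher in adult SNI. In sham 5 receptors and in SNI 6 had an unadjusted p under 0.05, against 28.9% and 32.8% of all genes. The receptors' shares were near the background in both. In sham 14 differences were negative with a median of -0.22, and in SNI 15 were negative with a median of -0.21. Over all genes 55.9% and 58.3% of differences were negative, with medians of -0.03 and -0.05. With values within 0.005 log2 taken as tied, groups did not overlap for 1 receptor in sham, Sstr2, where 8.28% of all genes did not overlap (3.88% with adults lower). In SNI they overlapped or met for all 16, where 8.74% of all genes did not (4.10% with adults lower). Averaging the age difference over sham and SNI, 12 against 12 arrays and chosen after seeing the data, called 6 receptors (37.5%), each lower in adults, where 34.7% of all genes were called, 19.8% lower and 14.9% higher, and 43.6% had an unadjusted p under 0.05. In this average 57.8% of all genes had a negative difference. It added Cnr1 (-0.51, SE 0.136, limma adjusted p 0.00482) and Oprl1 (-0.20, SE 0.0742, adjusted p 0.0394). The average took sham and SNI arrays as independent, although deviations of same-numbered arrays were correlated within each age. Its SEs and adjusted p may therefore be too small, and the added calls rest on that.

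Markers of several cell types were also called with age. The pan-neuronal list mean spanned 11.72 to 12.07 over adult sham arrays and 11.76 to 12.06 over neonatal sham arrays, and the dorsal horn list 9.62 to 10.01 and 9.67 to 10.17. Of the 7 dorsal horn markers 1 was called lower in adult sham, Slc17a6, the vesicular glutamate transporter of excitatory neurons, at -0.27 (limma adjusted p 0.0221), and it was also called in SNI at -0.24 (adjusted p 0.0375). The median difference of the dorsal horn list was -0.23 in sham and -0.24 in SNI, about that of the receptors. Its members did not move together. Slc17a6, Grp, Slc32a1 and Gad2 were lower in adults in both comparisons. Npy (0.36 in sham and 0.07 in SNI), Calb2 (0.25 and 0.18) and Gad1 (0.06 and 0.02) were higher, none of them called. Stmn2, 1 of the 9 pan-neuronal markers, was lower in adult sham at -0.41 (limma adjusted p 0.0121). It was the only pan-neuronal marker called there, and the median difference of that list was 0.04 in sham and 0.02 in SNI. Over SNI arrays the pan-neuronal list mean spanned 11.59 to 12.01 in adults and 11.65 to 11.94 in neonates, and the dorsal horn list 9.46 to 9.98 and 9.48 to 10.15. Microglial markers were higher in adults for 6 of 12 in sham and 11 of 12 in SNI, with median differences of 0.51 and 1.52. The oligodendrocyte list mean spanned 12.52 to 12.83 in adult sham and 12.64 to 13.05 in neonatal sham, and 12.51 to 12.80 and 12.68 to 13.08 in SNI. Of its 7 markers Cnp and Mag were lower in adults in both surgery groups. The part of cell composition in the receptor differences was not tested.

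The lowest array of a group was often the same one for several receptors. Among the 10 receptors with few shared values, array 4 was lowest for 6 in adult sham, 5 in adult SNI, 6 in neonatal sham and 2 in neonatal SNI. The dorsal horn neuron list mean was also lowest on array 4 in both sham groups, at 9.62 in adults and 9.67 in neonates. Its part in the receptor levels was not tested. The labels do not say what the replicate numbers mark.

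**Figure D3:**
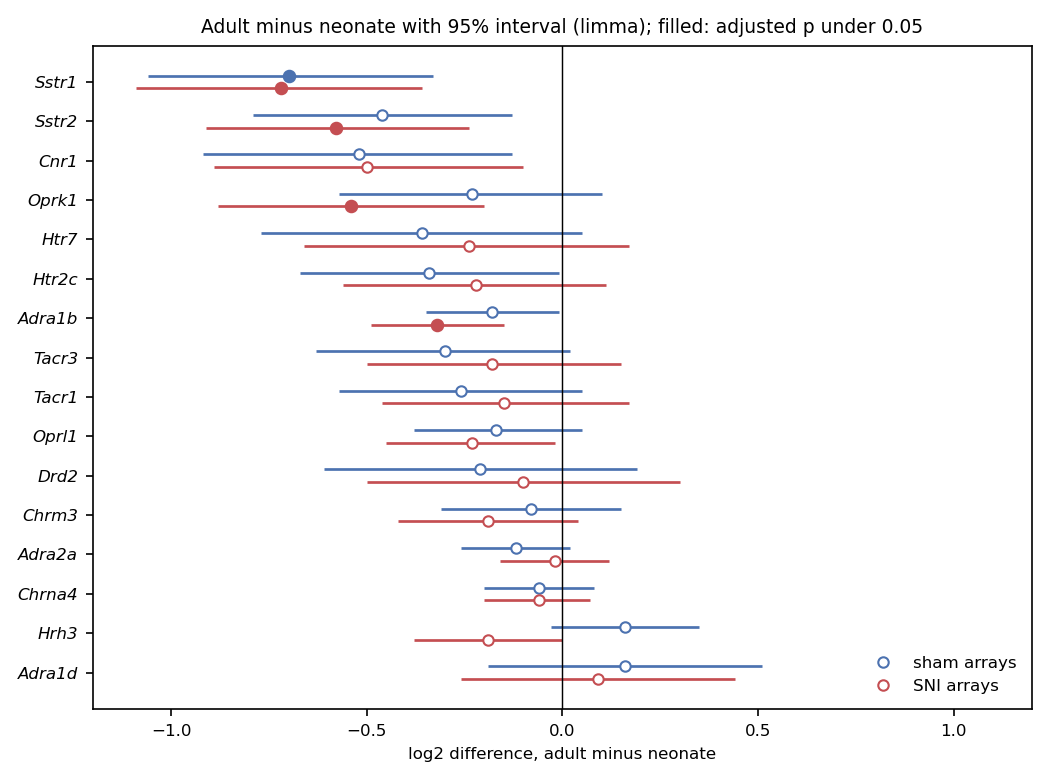
Adult minus neonate log2 difference of the 16 tested receptors with 95% limma intervals, in sham and in SNI, with filled points where the adjusted p is under 0.05. Most points lie left of 0, and Sstr1 is filled in both comparisons.

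The second question is whether receptor transcripts changed in the dorsal horn 7 days after SNI. No receptor was called in adults or in neonates. The largest negative adult difference was that of Oprk1, and in neonates that of Drd2. Differences here are SNI minus sham on the log2 scale, from the fit that does not pair arrays by replicate number.

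In adults 0 of 16 receptors were called by limma, where 2.01% of all genes were (1.98% higher and 0.0285% lower), and 0 had an unadjusted p under 0.05, against 7.75% of all genes. Differences ran from -0.33 to 0, the smallest adjusted p was 0.647, and no 95% interval reached beyond 0.70 log2 from 0. The median was -0.12, against -0.03 over all genes, and 15 of 16 differences were negative, against 60.7% of all genes. Sham and SNI arrays overlapped for all 16, where 1.88% of all genes did not overlap in adults (0.0856% with SNI lower) and 0.485% in neonates (0.0143% with SNI lower). In neonates 0 of 16 were called, where 0.357% of all genes were, each higher, and 1 had an unadjusted p under 0.05, against 2.63% of all genes. Those differences ran from -0.41 to 0.16 with a median of -0.09, against -0.01 over all genes, and intervals reached at most 0.81. Of the 16, 13 were negative, against 53.9% of all genes. Changes larger than these limits on the deposited scale lay outside every interval of the 16 representing probe sets. Intervals of other probe sets reached further, for the second Htr2c probe set in adults (-0.47 to 0.86) and the second Cnr1 probe set in neonates (-0.41 to 0.91). Some receptors had much narrower intervals, such as Adra1b in adults (-0.22 to 0.12). Every interval included 0 except that of Drd2 in neonates, -0.81 to -0.01 before adjustment.

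Oprk1 had a mean of 4.20 ± 0.319 in adult sham and 3.86 ± 0.372 in adult SNI (SD, n = 6), with a difference of -0.33 (SE 0.164, 95% interval -0.67 to 0, limma adjusted p 0.647). In neonates its difference was -0.03. The adult groups overlapped over most of their range.

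Drd2 stood at 6.84, 7.56 and 7.79 (lowest, median, highest) in adult sham and 6.52, 7.26 and 7.70 in adult SNI. In neonates it stood at 7.51, 7.64 and 7.92 in sham and 6.76, 7.20 and 7.90 in SNI. The differences were -0.30 (-0.70 to 0.10, limma adjusted p 0.82) in adults and -0.41 (-0.81 to -0.01, unadjusted p 0.0453, adjusted p 1) in neonates. Averaged over both ages, a comparison added after seeing the data, the difference was -0.35 (SE 0.137, adjusted p 0.381). That comparison called 0 of 16 receptors by limma, where 2.17% of all genes were called (2.08% higher and 0.0856% lower). It had 1 receptor, Drd2, at an unadjusted p under 0.05 against 8.09% of all genes, and 15 negative differences against 60.3%. In both ages the lowest SNI arrays lay below every sham array and the highest SNI arrays lay within the sham range.

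Tacr1, the receptor through which substance P acts on dorsal horn projection neurons, stood at 8.10, 8.24 and 8.67 in adult sham and 7.83, 8.23 and 8.35 in adult SNI. In neonates it stood at 8.30, 8.46 and 8.94 in sham and 7.89, 8.32 and 8.86 in SNI. Sham and SNI overlapped at both ages, with differences of -0.11 (-0.43 to 0.20) and -0.22 (-0.54 to 0.09).

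Among the remaining receptors, Cnr1 gave -0.07 in adults and -0.10 in neonates, Htr2c -0.07 and -0.19, Htr7 0 and -0.12, Sstr1 -0.19 and -0.16, Sstr2 -0.23 and -0.11, and Oprl1 -0.15 and -0.09. The second Htr2c probe set gave 0.20 and 0.05, and the second Cnr1 probe set -0.02 and 0.25. The other Oprl1 probe sets gave 0.11 and 0.02, and -0.10 and -0.09. The signs of these injury differences thus depended in part on the probe set. None of these passed. Hrh3 had opposite signs, -0.19 in adults and 0.16 in neonates. The test of the difference between ages gave -0.35 for Hrh3 (unadjusted p 0.0146, limma adjusted p 1), on a probe set with 15 of 24 arrays at its shared value. In that test 0 of 16 receptors were called, where 0.257% of all genes were, and 1 had an unadjusted p under 0.05, against 2.46% of all genes. Of the 16, 9 gave a negative value, against 55.1% of all genes.

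Microglial markers rose in the same arrays. The microglia list mean spanned 6.07 to 6.66 in adult sham and 8.34 to 8.67 in adult SNI, and 5.66 to 6.40 and 6.79 to 7.32 in neonates. All 12 markers tested rose in adults and 10 rose in neonates. The pan-neuronal list mean spanned 11.72 to 12.07 and 11.59 to 12.01 in the same adult groups. The part of this shift in the receptor differences was not tested.

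**Figure D4:**
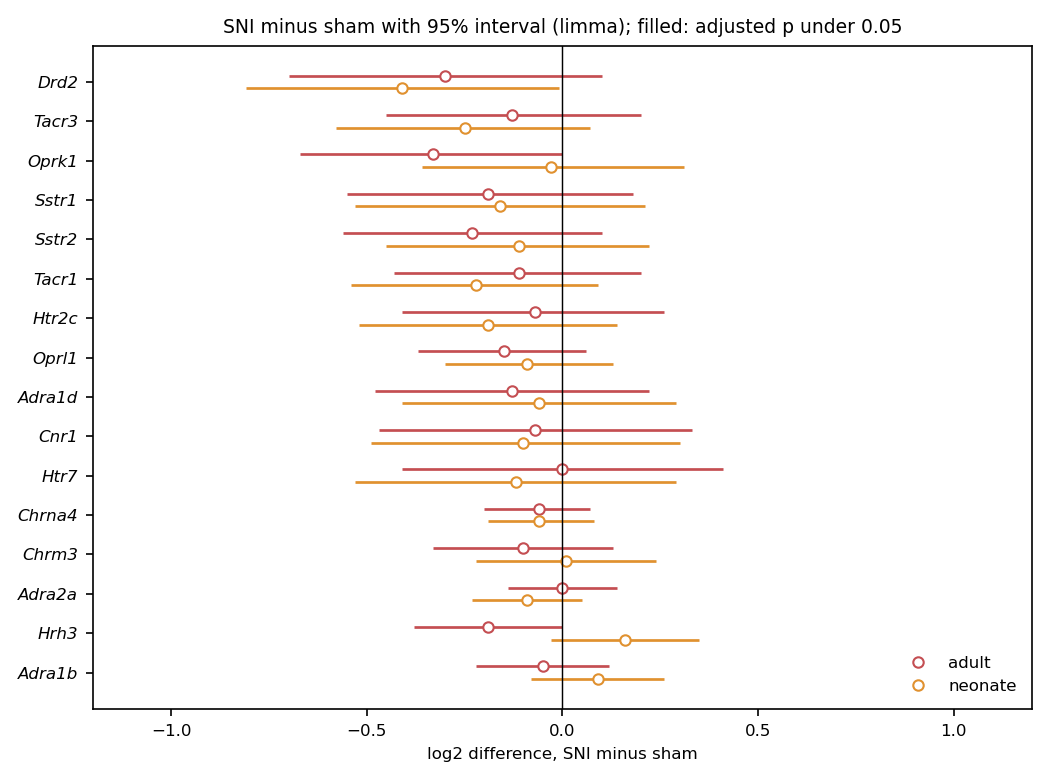
SNI minus sham log2 difference of the 16 tested receptors with 95% limma intervals, in adults and neonates. Every point is open, since no adjusted p was under 0.05, and the neonatal Drd2 interval ends at -0.01.

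Lists of genes that make, carry or respond to the same transmitters were read beside the receptors. Of 30 measured genes for the supply of transmitters and peptides, 15 were tested and none was called with injury at either age. By limma 1 had an unadjusted p under 0.05 in adults and 0 in neonates, against 7.75% and 2.63% of all genes. Over all genes 2.01% were called with injury in adults and 0.357% in neonates. With age in sham, 3 were higher in adults, the monoamine-degrading oxidases Maob (0.62) and Maoa (0.43) and the endocannabinoid hydrolase Abhd6 (0.43). Tac1, the precursor of substance P, was lower (-0.56, limma adjusted p 0.0367). In SNI the same 3 genes were higher, and Tac1 (-0.58, adjusted p 0.0235) and Sst, the somatostatin precursor (-0.48, adjusted p 0.0203), were lower. Sst gave -0.33 in sham (adjusted p 0.124). The list's median was 0.36 in each age comparison, where 16.5% and 21.6% of all genes were called.

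Of 30 measured G protein subunits and adenylyl cyclases, 23 were tested. None was called with injury, where 2.01% of all genes were in adults and 0.357% in neonates. By limma 3 had an unadjusted p under 0.05 in adults and 0 in neonates, against 7.75% and 2.63% of all genes. With the replicate number as a block 1 rose in adults, the gamma subunit Gng10. With age 2 were higher and 3 lower in adult sham, and 4 higher and 5 lower in adult SNI, where 16.5% and 21.6% of all genes were called. Gng8 (0.65) and Gng11 (0.55) were higher, and Gnb4 (-0.72), Gnb2 (-0.44) and Gng3 (-0.37) lower, in adult sham.

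Of 35 measured regulators and effectors of these receptors, 21 were tested and 2 rose with injury in adults, where 1.98% of all genes were called higher. They were Rgs10, a regulator of G protein signalling known from microglia, from 8.13 to 8.74 (0.61, SE 0.104, limma adjusted p 0.00051), and Rgs2, an inhibitor of Gq signalling, from 7.94 to 8.42 (0.48, SE 0.095, adjusted p 0.00279). In neonates neither passed, at 0.25 and 0 (adjusted p 1 for both). The test of the difference between ages gave 0.36 for Rgs10 (adjusted p 1) and 0.48 for Rgs2 (adjusted p 0.32). With age 3 genes were lower in adult sham, Caly (-0.56), Cnrip1 (-0.48) and Agrn (-0.36), and none was higher. In SNI 1 was higher, Rgs2 (0.40), and 5 were lower, Caly (-0.70), Ly6h (-0.61), Cnrip1 (-0.59), Agrn (-0.56) and Gprasp1 (-0.28). Over all genes 16.5% were called with age in sham and 21.6% in SNI.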

How the data were processed

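The authors deposited 1 table of log2 values made with GCRMA, per the submitters' processing notes, for 24 Affymetrix arrays hybridised from 5 ug of RNA. No GCRMA version was given. Of 15923 probe sets, 57 controls were left out. Probe sets above 3.84 log2 (40th percentile) on at least 6 arrays were tested (9638). A model of 4 group means was fitted to all arrays with limma 3.58.1 in R 4.3.3, with Benjamini-Hochberg adjustment over all 9638 probe sets and a threshold of 0.05. Each gene was represented by its probe set with the highest mean. The members and gene lists were chosen with earlier results of these data known. Receptors were named when called in any comparison, or when they had the most arrays above the level in their class. Others named here were chosen after their values were seen. Motifs were searched on both strands of RefSeq promoter windows (GRCr8), which 55 of the 69 genes had. Alternatives covered the replicate block, filters, array centring, values raised to the filter level, the groups fitted, the variance prior, the representing probe set and each array left out. Scripts were tested on simulated data. Deviations of same-numbered sham and SNI arrays from their group means had correlations between 0.1 and 0.559 for adult pairs, and between 0.237 and 0.61 for neonatal pairs, so numbers were taken to pair arrays within an age. Across ages 5 of 6 pairs exceeded 0.1 in sham (0.0141 to 0.43) and in SNI (0.0349 to 0.644), short of all pairs, so no pairing was taken. What a number marks is not given in the labels. The injury differences, intervals and p-values above came from the fit without pairing, except where the block is named. With correlated pairs that fit can give injury intervals that are too wide and unadjusted p-values that are too large.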

Additional observations from a re-analysis of the deposited data

Results flagged for a closer look

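In 13 of 64 receptor-by-group sets of 6 arrays, the highest or lowest array stood far from the others by Dixon's criterion. Chance gives about 3.2 for values without ties. Most flagged sets belonged to receptors with shared values, where a small departure is enough, so that figure is no fair comparison. Adra1d accounted for 3 of them, adult sham array 4 at 4.69 (nearest 3.84), neonatal sham array 3 at 4.21 (nearest 3.56) and neonatal SNI array 3 at 4.09 (nearest 3.57). Adra2a and Chrna4 accounted for 2 each through departures from a shared value. Adra2a stood at 4.82 on adult sham array 2 and at 4.98 on neonatal SNI array 6, with the nearest arrays at 4.84. Chrna4 stood at 5.5 on neonatal sham array 4 (nearest 5.32) and at 5.29 on neonatal SNI array 6 (nearest 5.24). Hrh3 on neonatal sham array 5 was at 5.23 with the nearest at 5.61, and Tacr3 on adult sham array 2 was at 5.11 with the nearest at 4.82.

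The others concerned receptors with few shared values. Htr2c was 10.17 on neonatal sham array 4 (nearest 10.75), Oprl1 was 8.44 on neonatal sham array 3 (nearest 8.03), Adra1b was 6.75 on adult SNI array 5 (nearest 7.08) and Sstr2 was 5.84 on adult sham array 4 (nearest 6.44).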

How the results depend on the processing

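Counts of called receptors in the injury comparisons and in the difference between ages were 0 under every alternative run, including each array left out. For age in sham the count of 1 became 3 with the replicate block (Cnr1, Sstr1, Sstr2), 2 with the 60th-percentile filter (Sstr2, which passes that filter on 6 arrays, each neonatal), 2 in a fit of only the groups compared and 6 when averaged over surgery, and ran from 1 to 3 with single arrays left out. Numbers were not taken to pair arrays across ages, so the block is no check of those age counts. The averaged fit ignores the pairing of sham with SNI arrays within an age, so its counts may be too high. For age in SNI the count of 4 ran from 3 to 5 with single arrays left out, and was 5 with the block (adding Cnr1, adjusted p 0.00413), 3 with the 60th-percentile filter and 6 when averaged. The replicate block, which pairs sham with SNI, changed no injury call of a receptor. Sstr1 was called under every alternative run, with an adjusted p of at most 0.0237 in sham. The age difference averaged over sham and SNI gave it an adjusted p of 9.88e-05. Of 1336 alternative values of named receptors, 2 lost a call (Oprk1, given above), 18 gained one and no called value changed sign. Uncalled differences changed sign in 34 of these values. The 60th-percentile filter left 9 receptors. In the companion lists 50 of 54 alternative counts stayed within 1.5 times. Dim signal limits the receptors near 3.84.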
